A study of Mus musculus with 4 samples.

Results

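The dopamine system was described here through 9 genes: the 5 dopamine receptors *Drd1*, *Drd2*, *Drd3*, *Drd4* and *Drd5*, the synthesis enzymes *Th* and *Ddc*, the vesicular transporter *Slc18a2* and the degrading enzyme *Maoa*. They were chosen by name, and their probes were found through the RefSeq accession that the array design gives each spot, which yielded 11 probes for the 9 genes among 32575 genes or identifiers on the array. Spinal cord and duodenum RNA of a WT mouse and of an IP6K2-KO mouse was measured on 4 1-colour arrays, 1 for each genotype and tissue. IP6K2 is a kinase that makes the inositol pyrophosphate IP7, and the study measured a dopamine receptor transcript among neuronal genes of the gut. All mice were male and 20 weeks old, had been raised on a normal diet, and were fasted for 48 h after 1 week on a purified diet. The KO is a germline deletion of an exon encoding the kinase domain, carried by all cells, and the WT was its littermate control.

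Dopamine is made from tyrosine in consecutive steps. Tyrosine hydroxylase, the product of *Th*, is the rate-limiting enzyme and needs tetrahydrobiopterin as a cofactor, and aromatic L-amino acid decarboxylase, the product of *Ddc*, converts L-DOPA to dopamine and also makes serotonin. The vesicular monoamine transporter VMAT2, the product of *Slc18a2*, loads dopamine and other monoamines into vesicles, and monoamine oxidase A, the product of *Maoa*, breaks them down on the outer membrane of mitochondria. The receptors are coupled to G proteins: the D1-like receptors (*Drd1* and *Drd5*) raise cyclic AMP, and the D2-like receptors (*Drd2*, *Drd3* and *Drd4*) lower it. In the spinal cord most dopamine comes from fibres that descend from the brain, whose cell bodies lie outside the dissected tissue, whereas in the gut dopamine is made by some enteric neurons and by mucosal cells.

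Since each group was a lone array, differences could not be tested or checked against replicates. The error given beside a difference is a technical SD, taken from probes spotted 10 times on each array, and it covers spots and not mice. The arrays differed in brightness. The 75th percentile of the processed signal ranged from 68.0 on the WT duodenum array to 971 on the KO spinal cord array, and the share of probes well above background from 51.6% to 77.4% in the same order. Values are therefore given as the processed signal and as its log2 less the 75th percentile of the array, here called the normalized level, and levels of different probes are not compared. The *Ip6k2* probe (NM_029634), the check of the labels, gave signals of 452 and 1320 on the spinal cord arrays labelled WT and KO, a normalized difference of 1.45 in the direction opposite to a loss. In the duodenum it gave 139 and 572, a difference of −0.21. The place of this probe relative to the deleted exon is not known here, so genotypes are named as labelled throughout.

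The tissue labels were checked against markers. The 8 enterocyte markers were well above background on both duodenum arrays, and the 8 neuronal markers on both spinal cord arrays. All 7 pancreatic acinar markers were also well above background on both duodenum arrays. Other cell types moved with the genotype label in the spinal cord: all 6 skeletal muscle markers (summed signal 3.89 times the 75th percentile on the WT array and 63.0 times on the KO array), all 4 Schwann cell markers (5.17 and 28.9), 4 of 6 red blood cell markers (228 and 351) and 4 of 6 lymphocyte and myeloid markers (0.606 and 1.04) were at least 2-fold higher on the KO array, and none of these markers was at least 2-fold lower. The neuronal sum was 231 and 222. In the duodenum all 6 red blood cell markers were at least 2-fold lower on the KO array (1532 and 88.4), as were 4 of 7 pancreatic acinar markers (9923 and 3547) and 3 of 8 mast cell markers (1.93 and 1.51). Of the 8 mast cell markers *Cma1* and *Fcer1a* were not well above background on either duodenum array. In WT and KO duodenum the enterocyte sum was 2202 and 1094, and the enteroendocrine sum 142 and 147. Of the 8 enterocyte markers, 1 was at least 2-fold higher on the KO duodenum array and 1 lower. Their median difference was −0.004. The lower marker was *Fabp2*, at normalized levels of 10.4 in WT and 8.57 in KO duodenum, so the enterocyte sum does not stand for all 8. The neuronal sum there was 19.4 and 11.6, and the enteric neuron sum 1.75 and 1.41. The part of these cell types in the differences below was not tested, and in whole tissue fewer cells of a type and less RNA per cell cannot be told apart.

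The promoters of the genes whose transcripts were measured on all 4 arrays, together with that of *Drd5*, a receptor of interest in the gut, show the sequence from which each transcript starts. RefSeq (GRCm38.p6) gave 11 windows for the 9 genes, each of 300 bases, from 250 before to 50 after a start. The *Th* window is chr7:142899946-142900245, minus strand, and that of *Slc18a2* is chr19:59260628-59260927, plus strand. *Ddc* has 2 windows, the upstream one at chr11:11898095-11898394, minus strand, and the downstream one at chr11:11890359-11890658, minus strand. The *Maoa* window is chrX:16619448-16619747, plus strand, and that of *Drd5* is chr5:38319259-38319558, plus strand. Each is printed 5′ to 3′ in the direction of transcription, with capitals for matches, on either strand, to the cyclic AMP response element TGACGTCA, the TATA box TATAAA or the GC box GGGCGG.
Th: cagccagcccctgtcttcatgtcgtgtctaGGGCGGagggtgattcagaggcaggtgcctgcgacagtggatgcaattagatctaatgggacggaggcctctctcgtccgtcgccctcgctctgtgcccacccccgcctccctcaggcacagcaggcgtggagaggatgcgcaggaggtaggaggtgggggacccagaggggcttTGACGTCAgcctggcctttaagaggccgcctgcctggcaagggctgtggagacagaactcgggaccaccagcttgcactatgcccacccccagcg
Slc18a2: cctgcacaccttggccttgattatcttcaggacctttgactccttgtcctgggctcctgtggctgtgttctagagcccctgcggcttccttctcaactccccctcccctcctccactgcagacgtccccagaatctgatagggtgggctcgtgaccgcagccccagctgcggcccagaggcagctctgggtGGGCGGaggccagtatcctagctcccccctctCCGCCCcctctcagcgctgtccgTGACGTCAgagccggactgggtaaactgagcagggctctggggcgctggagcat
Ddc, upstream start: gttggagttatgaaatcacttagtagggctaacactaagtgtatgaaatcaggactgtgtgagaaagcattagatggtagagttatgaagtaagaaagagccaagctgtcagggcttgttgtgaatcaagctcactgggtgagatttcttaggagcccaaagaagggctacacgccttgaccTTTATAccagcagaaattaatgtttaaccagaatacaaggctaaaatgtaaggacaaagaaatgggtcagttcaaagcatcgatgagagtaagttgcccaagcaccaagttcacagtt
Ddc, downstream start: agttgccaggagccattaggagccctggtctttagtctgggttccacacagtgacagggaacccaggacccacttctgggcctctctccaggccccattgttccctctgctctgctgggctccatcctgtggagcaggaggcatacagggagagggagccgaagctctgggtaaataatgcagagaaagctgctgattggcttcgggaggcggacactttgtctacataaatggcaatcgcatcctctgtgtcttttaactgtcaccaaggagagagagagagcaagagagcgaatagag
Maoa: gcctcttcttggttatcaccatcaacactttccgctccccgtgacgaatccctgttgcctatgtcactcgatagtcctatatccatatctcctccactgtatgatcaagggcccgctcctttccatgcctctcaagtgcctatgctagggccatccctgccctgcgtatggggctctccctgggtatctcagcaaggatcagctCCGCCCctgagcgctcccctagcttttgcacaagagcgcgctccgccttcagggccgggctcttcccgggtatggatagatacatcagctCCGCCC
Drd5: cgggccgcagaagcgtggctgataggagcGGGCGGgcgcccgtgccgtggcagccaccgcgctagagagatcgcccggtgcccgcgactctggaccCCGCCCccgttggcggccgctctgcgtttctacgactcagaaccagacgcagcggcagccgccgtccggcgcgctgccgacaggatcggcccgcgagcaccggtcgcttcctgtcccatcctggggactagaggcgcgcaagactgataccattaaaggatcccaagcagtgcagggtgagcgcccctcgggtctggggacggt

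Among the 9 genes the cyclic AMP response element was found in *Th*, from base 206 of the window, and in *Slc18a2*, from base 247. It stood in 1.79% of the 32851 promoter windows of the annotation. The TATA box was found in the upstream *Ddc* window alone, from base 183, against 13.6% of all windows. The GC box was found in the windows of 7 genes (*Drd1*, *Drd5*, *Drd2*, *Drd4*, *Th*, *Slc18a2* and *Maoa*) and in 35.7% of all windows, and no match overlapped a match of another motif. The HNF1 half-site GTTAAT, searched because HNF1 acts in gut epithelium, had no match in the 11 windows and stood in 7.10% of all. These are matches of letters and not sites of binding.

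By the names in the scanner files, all 5 receptor probes were well above background on both spinal cord arrays and on neither duodenum array. Of all genes on the array, 12.1% had this pattern, and of the 24165 genes that were well above background on both spinal cord arrays, 16.3% were so on neither duodenum array. The other 4 genes were well above background on all 4 arrays, as were 49.7% of all genes. The plot of levels by array shows this split. It is limited by brightness, since the lowest normalized level well above background on the WT duodenum array was −3.99. In WT spinal cord *Drd1*, *Drd2*, *Drd3* and *Drd4* stood below that, from −6.89 to −4.57. At an equal level they would not have been well above background in WT duodenum. The shares of all genes are not matched for such dim probes. For *Drd5* the split depends on the naming of its probe, described below.

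**Figure D1:**
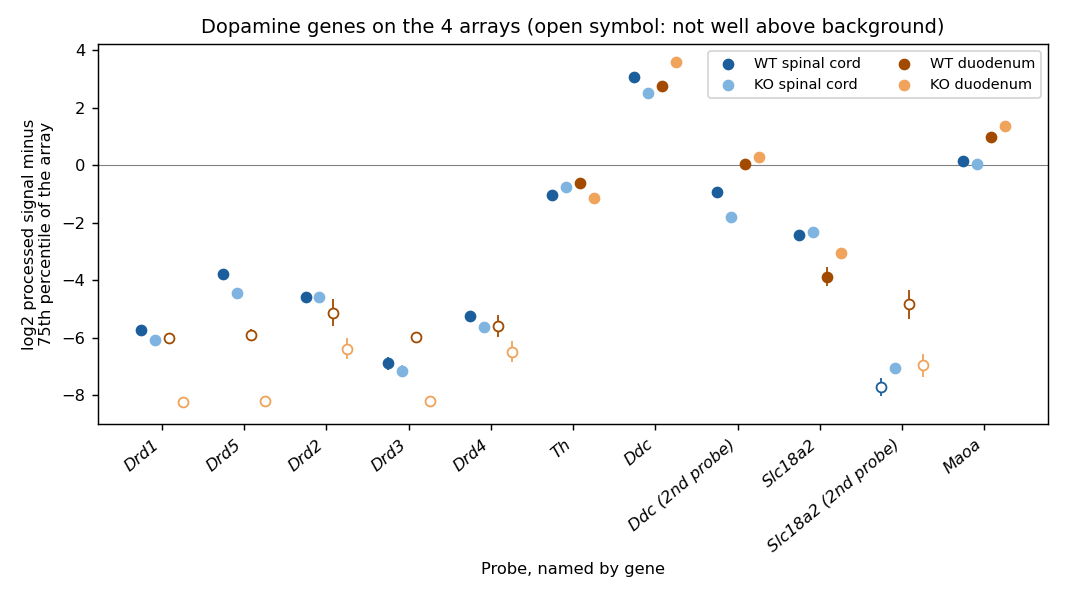
Normalized level (log2 processed signal minus the 75th percentile of the array, vertical axis) of the 11 probes of the 9 dopamine genes on the 4 arrays; bars are technical SDs and open symbols mark probes not well above background. The 5 receptor probes are filled on the spinal cord arrays and open on the duodenum arrays, where open symbols are at background and have no order, whereas *Th*, *Ddc*, *Maoa* and the brighter *Slc18a2* probe are filled on all 4.

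Of the D1-like receptors, *Drd1* (NM_010076) gave signals of 17.0 on the WT and 14.5 on the KO spinal cord array, and 1.05 and 1.08 on the duodenum arrays. Its spinal cord difference, KO minus WT as for all genotype differences, was −0.33 with a technical SD of 0.18, so that the arrays lay close together. *Drd5* (NM_013503) gave 66.3 and 45.1 in the spinal cord and 1.139 and 1.103 in the duodenum. The spinal cord arrays differed by −0.66 with a technical SD of 0.11, that is 1.58-fold lower on the KO array, which was the largest difference among the 5 receptors. By the brighter probe of each gene, it was the only one of the 9 at least 1.5-fold apart in the spinal cord, where 8.43% of the genes tested were.

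The name of the *Drd5* probe is not settled by the files. In the deposited table, 6 probes (named for *Htr1b*, *Elavl4*, *Cckbr* and *Drd5*) carry values that the scanner files give to other probes among them. The names of the scanner files are used here, also for the neuronal marker *Elavl4*. By them its 2 probes stood at log2 values of 9.87 and 8.52 in WT spinal cord on the table's scale. By the table's names they stood at 1.84 and 3.54. The table lists *Drd5* at log2 values of 8.73 and 8.81 in WT and KO spinal cord and 0.09 and 3.39 in WT and KO duodenum, which are the values that the scanner files attach to a *Cckbr* probe with signals of 1020, 1148, 0.915 and 7.72. By the table's names *Drd5* differed by 0.08 in the spinal cord, in the opposite direction, and its probe was well above background on the KO and not on the WT duodenum array. On the table's own scale its duodenum values differed from its spinal cord values, less the median gene, by −8.97 in WT and −5.64 in KO. By the names in the scanner files the bounds for *Drd5* with that scaling were −0.84 in WT and −2.09 in KO. No genotype fold is given for the duodenum. By the scanner files both arrays were at background there, and by the table the WT array was too dim for a bound.

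The D2-like receptors differed little between the spinal cord arrays. *Drd2* (NM_010077), which is also the autoreceptor of dopamine neurons, gave signals of 38.1 and 40.5 in WT and KO spinal cord and 1.95 and 3.86 in the duodenum, and its spinal cord difference was −0.02 with a technical SD of 0.12. *Drd3* (NM_007877), the receptor with the dimmest probe, gave 7.61 and 6.90 in the spinal cord and 1.07 and 1.11 in the duodenum. It differed by −0.24 in the spinal cord, less than its technical SD of 0.30. *Drd4* (NM_007878) gave 23.9 and 19.7 in the spinal cord and 1.41 and 3.60 in the duodenum, and differed by −0.38 in the spinal cord with a technical SD of 0.14. All 5 receptors were thus at or below 0 in the spinal cord, as were 58.7% of the 24165 genes measured on both arrays. Under normexp background correction the 5 values were −2.27 for *Drd1*, −1.95 for *Drd5*, −1.79 for *Drd2*, −2.43 for *Drd3* and −2.12 for *Drd4*, when the median gene differed by −0.45. In the spinal cord no gene of the 9 was past 2-fold with that correction once local backgrounds that the scanner software had marked were replaced.

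Both enzymes of dopamine synthesis were well above background in both tissues. *Th* (NM_009377) gave 441 and 574 on the WT and KO spinal cord arrays and 44.2 and 145 on the WT and KO duodenum arrays. Its normalized levels were −1.04, −0.76, −0.62 and −1.15 in that order, so that the KO array was the higher of the pair in the spinal cord and the lower in the duodenum. The difference was 0.28 with a technical SD of 0.064 in the spinal cord, and −0.53 with 0.10 in the duodenum, a 1.45-fold difference. The order of levels was WT duodenum, KO spinal cord, WT spinal cord and KO duodenum, and the first pair and the last pair in it lay 0.14 and 0.11 apart, with technical SDs of 0.098 and 0.071.

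*Ddc* had 2 probes. The brighter, listed under NM_001190448, gave signals of 7608 and 5596 in WT and KO spinal cord and 456 and 3856 in WT and KO duodenum. The other, listed under NM_016672, gave 479 and 279 in the spinal cord and 70.9 and 396 in the duodenum. Both moved the same way between genotypes in each tissue. In the spinal cord the KO array was lower by both, with differences of −0.54 and −0.88 and technical SDs of 0.058 and 0.063. In the duodenum the KO array was higher by both, by 0.83 with a technical SD of 0.069 for the brighter probe, a 1.78-fold difference, and by 0.23 with 0.089 for the other.

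*Slc18a2* (NM_172523) gave signals of 169 and 197 in WT and KO spinal cord and 4.63 and 39.2 in WT and KO duodenum with its brighter probe. The second probe was well above background on the KO spinal cord array alone, where its signal was 7.27, and gave 2.39 and 2.61 on the duodenum arrays. The spinal cord arrays differed by 0.12 with a technical SD of 0.076. The duodenum arrays differed by 0.83 with a technical SD of 0.33, and this value rests on a WT signal just above the lowest signal well above background on that array, 4.29. Its direction was not stable: it was −0.88 under both normexp corrections and −0.64 with the mean of the 2 probes, which brings in the background values of the second probe.

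*Maoa* (NM_173740) gave signals of 1015 and 1007 in WT and KO spinal cord and 136 and 832 in WT and KO duodenum, at normalized levels of 0.16, 0.05, 1.00 and 1.37. The duodenum arrays were above the spinal cord arrays in both genotypes. The genotypes differed by −0.11 in the spinal cord with a technical SD of 0.059, and by 0.37 in the duodenum with 0.083, and the duodenum values were between 0.37 and 3.38 under the 8 alternative settings.

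**Figure D2:**
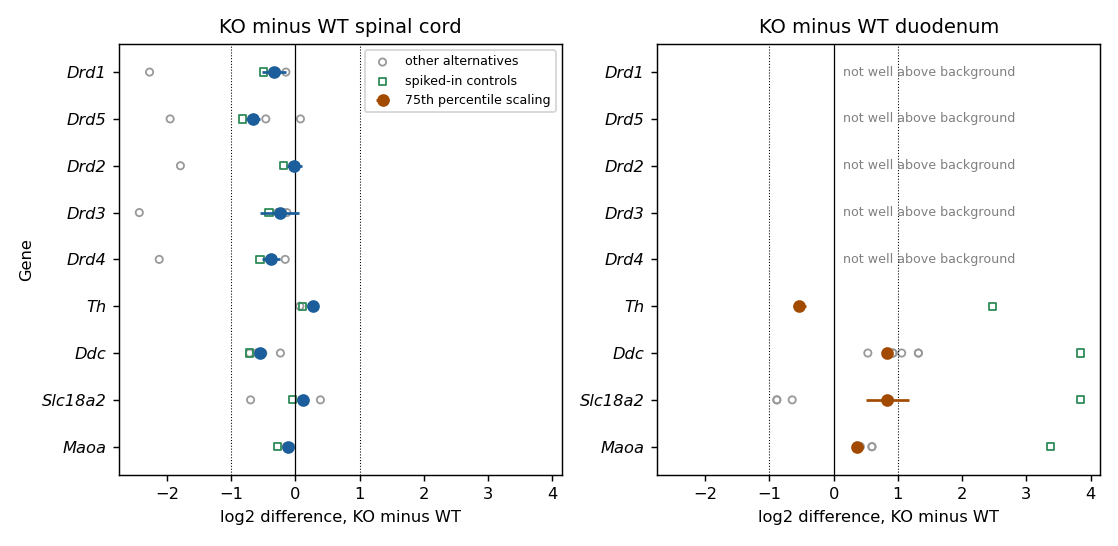
KO minus WT difference (log2, horizontal axis) of each gene in the spinal cord and the duodenum; filled points with technical SD bars are values scaled on the 75th percentile, open circles and squares are the alternative settings, and dotted lines mark 2-fold. The filled points lie between −0.66 and 0.83, the receptors have a low open circle in the spinal cord (normexp, −1.79 to −2.43), and in the duodenum the squares (scaling on spiked-in controls) lie above 2 for all 4 genes.

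No gene of the 9 was 2-fold apart between the spinal cord arrays, where 3.15% of the genes tested were. Their median difference was −0.24, against −0.04 for all genes measured on both arrays. In the duodenum 4 of the 9 could be compared and 0 were 2-fold apart, where 19.1% of the genes tested were, and their median difference was 0.60 against −0.11 for all genes. Of the 4, *Th* was below 0, as were 55.8% of the 16809 genes measured on both arrays. *Ddc* and *Slc18a2* were at least 1.5-fold apart there, as were 39.6% of the genes tested. The duodenum values depend on the scaling. When spiked-in control probes set the scale of each array, the median gene was 2.89 higher on the KO array and *Th* was 2.47 higher, so that the negative value of *Th* holds relative to the other genes of the array. *Th*, *Ddc* and *Maoa* ran in opposite directions in the 2 tissues, as did 47% of the genes measured on all 4 arrays.

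**Figure D3:**
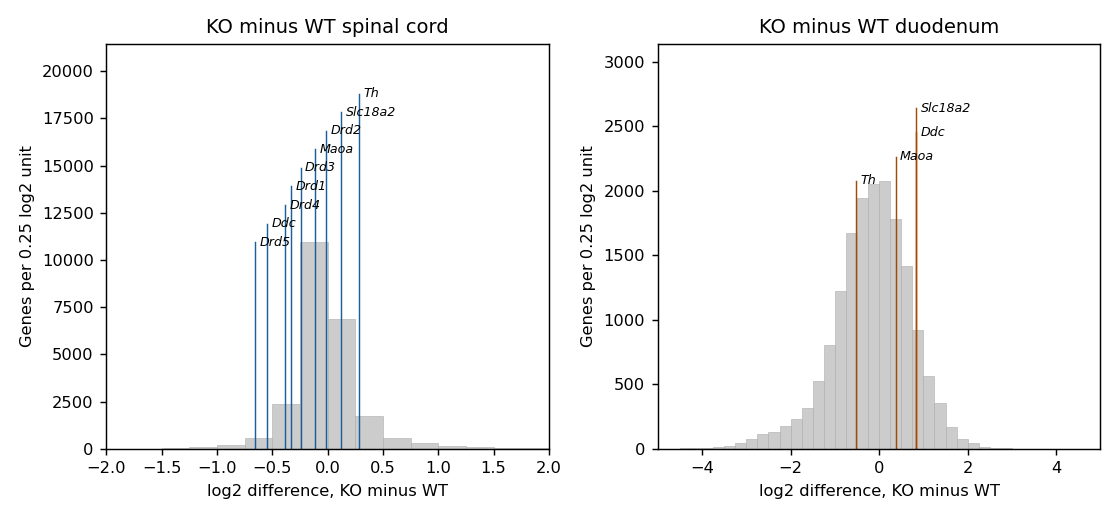
Distribution of the KO minus WT difference (log2, horizontal axis; number of genes per bin of 0.25, vertical axis) over all genes well above background on both arrays of a tissue, with the dopamine genes as vertical lines whose height only separates the names; the horizontal axes differ and leave out the tails. In the spinal cord the lines from −0.66 (*Drd5*) to 0.28 (*Th*) lie within a narrow distribution, and in the duodenum the lines from −0.53 (*Th*) to 0.83 (*Slc18a2* and *Ddc*) lie within a wide one.

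Between tissues, a difference is given as duodenum minus spinal cord, also less that of the median gene (0.63 in WT and 0.30 in KO), because scalings shift all genes of a tissue together. In WT, 1 gene of the 9 was at least 2-fold apart, *Slc18a2*, which was lower in the duodenum, with a difference of −1.45, or −2.08 less the median gene. Less the median gene it was −0.27 under normexp, 0.22 with marked backgrounds replaced and 0.10 with the mean of the probes, and no gene of the 9 was then 2-fold apart. Of the genes tested, 53.3% were 2-fold apart in this comparison, 30.2% higher and 23.1% lower in the duodenum. For 4 of the 9, *Drd1*, *Drd2*, *Drd3* and *Drd4*, no fold followed. They were too dim in WT spinal cord for a bound, so the count of 1 rests on the other genes. *Th* differed by 0.42, *Ddc* by −0.33 and *Maoa* by 0.83, or −0.21, −0.95 and 0.20 less the median gene. The second *Ddc* probe gave 0.98, or 0.35 less the median gene, so that the 2 *Ddc* probes disagreed in direction in WT.

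In KO, 4 genes of the 9 were at least 2-fold apart, 2 higher and 2 lower in the duodenum, against 55.7% of the genes tested, 30.3% higher and 25.4% lower. *Ddc* was higher in the duodenum by 1.05 and *Maoa* by 1.31, or 0.75 and 1.02 less the median gene, and the second *Ddc* probe gave 2.09, or 1.79 less the median gene. *Drd5* was at least 3.46-fold and *Drd2* at least 3.10-fold higher in the spinal cord. These bounds set the spinal cord level against the lowest level well above background on the duodenum array, and under both normexp settings no bound followed for either gene. Under normexp *Ddc* and *Maoa* were 0.34 and 0.60 less the median gene. *Drd4* was at least 1.51-fold and *Drd1* at least 1.11-fold higher there, and *Drd3* was too dim for a bound. In WT a bound followed for *Drd5* alone, at least 1.16-fold, because the WT duodenum array was the dimmest. *Th* and *Slc18a2* were lower in the KO duodenum, with differences of −0.39 and −0.74, or −0.69 and −1.04 less the median gene.

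**Figure D4:**
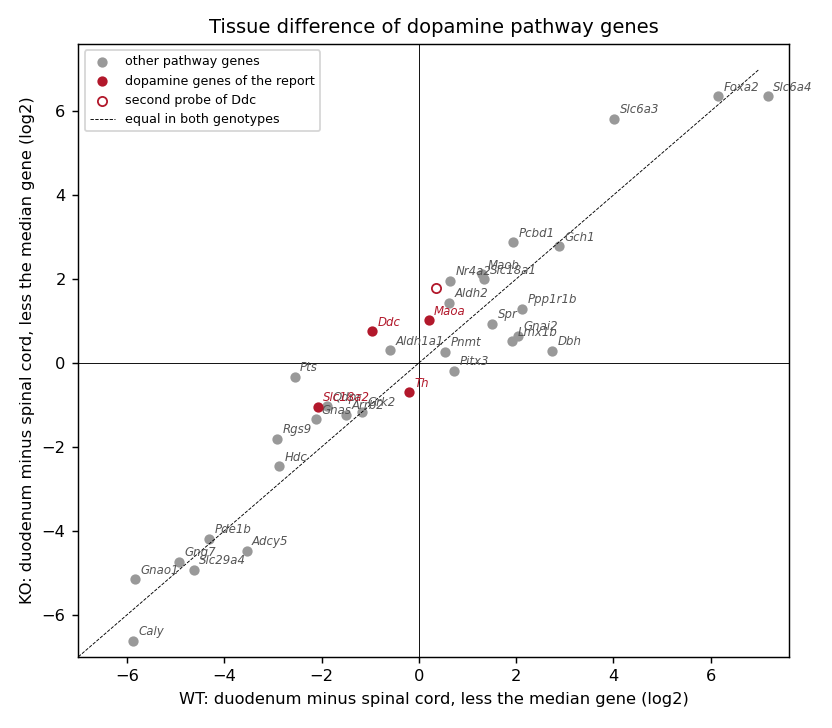
Duodenum minus spinal cord difference less that of the median gene (log2) in WT (horizontal axis) and KO (vertical axis) for the dopamine genes (red; open, second *Ddc* probe) and the other pathway genes (grey, 1 not shown) that were well above background on all 4 arrays; the dashed line marks equal values. *Slc18a2* and *Th* lie below 0 on both axes, *Maoa* above 0 on both, and the brighter *Ddc* probe at −0.95 in WT and 0.75 in KO.

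Around the 9 genes, 38 other genes of monoamine metabolism and dopamine signalling were examined, and those not well above background on either array of a tissue were left out there. In the spinal cord 34 were measured, 2 were at least 2-fold higher on the KO array and 0 lower, against 2.28% and 0.865% of all genes tested. *Dbh*, which converts dopamine to noradrenaline and marks noradrenergic cells, gave signals of 18.3 and 70.2 in WT and KO spinal cord, a difference of 1.84. *Slc6a4*, the serotonin transporter, gave 4.87 and 15.5, a difference of 1.57. Under normexp these were −1.47 and −2.20, and with marked backgrounds replaced 0.60 and 0.11, below 2-fold. Of the 6 noradrenergic markers, which include *Dbh*, *Slc6a2* and *Hand2* were not well above background on either spinal cord array, and the summed level of the 6 was 0.135 and 0.229 times the 75th percentile.

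In the duodenum 34 of the 38 were measured, 4 were at least 2-fold higher on the KO array and 6 lower, against 7.20% and 11.9% of all genes tested. Of the 5 genes for the tetrahydrobiopterin cofactor, *Pts* gave signals of 11.8 and 208 in WT and KO duodenum and was higher by 1.90, or by 0.36 under both normexp settings, which is below 2-fold. *Gch1*, the entry enzyme of that pathway, gave 467 and 1397 and differed by −0.66. The dopamine transporter gene *Slc6a3* gave 37.1 and 398 in WT and KO duodenum, higher by 1.18, or by 0.61 under both normexp settings, below 2-fold. In the spinal cord it gave 19.8 and 17.3, a difference of −0.30. It stood above the spinal cord in both genotypes, by 4.01 in WT and 5.82 in KO less the median gene. *Nr4a2*, a transcription factor of dopamine neurons, gave 54.4 and 582 and was higher by 1.17, or by 0.94 under both normexp settings.

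Of the 13 genes of receptor signalling, 4 were at least 2-fold lower on the KO duodenum array and 1 was higher, against the same shares of all genes, 11.9% and 7.20%. *Ppp1r1b*, which encodes the phosphatase inhibitor DARPP-32 that acts downstream of D1-like receptors, gave 5815 and 10096 in WT and KO duodenum and was lower on the KO array after scaling (−1.45). *Gnai2*, an inhibitory G protein subunit, gave 2919 and 4598 (−1.59), and *Adcy5*, an adenylyl cyclase, gave 22.9 and 36.9 (−1.56). *Caly*, which encodes the neuronal vesicle protein calcyon, gave 20.3 and 41.3 (−1.22). *Gnal*, the stimulatory G protein subunit of the striatum, was well above background on the KO array alone, with a signal of 44.2, and was at least 2.17-fold higher there. The transcription factors *Pitx3* and *Lmx1b* gave 8.08 and 15.7 (−1.29) and 12.5 and 20.3 (−1.55). Under both normexp settings *Gnai2* (−0.97) and *Ppp1r1b* (−0.76) were below 2-fold, and with the mean of the probes *Adcy5* (−0.47) and *Gnal* (0.24) were. *Ppp1r1b* was also below 2-fold under quantile normalization of the 4 arrays (−0.85) and by the deposited table (−0.84). All signals of the lower genes rose less between the WT and the KO duodenum array than its 75th percentile, which went from 68.0 to 323.

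Monoamine oxidase B, the product of *Maob*, breaks down dopamine as the product of *Maoa* does. Its probe gave signals of 1243 and 1406 in WT and KO spinal cord and 354 and 2498 in WT and KO duodenum, with differences of 0.08 and 0.57, both under 2-fold. *Dbh* in the duodenum gave 14.2 and 35.1, a difference of −0.94.

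For each of the 4 genes measured on all arrays, the 3 genes whose 4 levels, less their own mean, came nearest were sought among 12023 named genes, with the root mean square difference as the measure. They were *Cryba4* (0.042), *Lrrc8c* and *Kdm7a* for *Th*, *Fnip2* (0.078), *Dffb* and *Btg3* for *Ddc*, *Gemin8* (0.024), *Nek4* and *Ptrh2* for *Slc18a2*, and *Bfsp1* (0.018), *Traf5* and *Eif3l* for *Maoa*. With 4 arrays many genes come near any pattern, and none of these is a member of the pathway lists.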

How the data were processed

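Total RNA from WT and IP6K2-KO spinal cord and duodenum was labelled with Cy3 and measured on 4 arrays of 1 slide, 1 per group. The authors deposited scanner output, whose processed signal is a background-subtracted, detrended intensity made by Agilent Feature Extraction 11.5.1.1 (submitters' processing notes), and a table of log2 values that matched quantile normalization of the 4 arrays with signals under 1 raised to 1. Control spots and between 89 and 133 outlier spots of 43020 per array were left out, log2 was averaged per probe, and the 75th percentile of the array was subtracted. RefSeq accessions were named through the GRCm38.p6 annotation (25868 of 26391 NM probes matched), which gave 32575 genes or identifiers, each represented by its probe with the highest mean. A gene was tested for the fold counts where at least 1 array was well above background, with a bound where only 1 was: the dim array was set at the higher of the probe's own level and the lowest level well above background on that array. No probe was saturated. Technical SDs come from 399 probes spotted 10 times, as the median of the 50 nearest in brightness. No test was made. The precision is limited by the number of arrays.

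The steps ran in Python 3.11.15 with numpy 2.4.6 and pandas 2.3.3, and in R 4.3.3 with limma 3.58.1 for normexp with an offset of 50, and were tested on simulated data (100% of 200 changed genes recovered among 24597 genes for the spinal cord and 16880 for the duodenum). That run checks the steps alone. It gives no error rate for the real arrays, since 1 array per group holds no spread between mice. Genes named are the 9 members, pathway genes at least 2-fold apart between genotypes, *Maob*, *Dbh*, *Slc6a3*, *Gch1* and *Ppp1r1b* in any case, the 3 nearest genes of each member measured on all arrays, *Ip6k2*, and *Cckbr* for the naming of *Drd5*, and 1 further gene of the rule is not reported here. The members and lists were chosen with earlier results of these data known.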

Additional observations from a re-analysis of the deposited data

Results flagged for a closer look

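For 3 genes the genotype difference ran in opposite directions in the spinal cord and the duodenum. The gap, the duodenum difference minus the spinal cord difference, was −0.813 on the log2 scale for *Th*, 0.484 for *Maoa*, 1.38 for the brighter *Ddc* probe and 1.12 for the second *Ddc* probe. With 1 array per group these gaps were not tested. Of the 16182 genes measured on all 4 arrays, 47% likewise had opposite signs in the tissues. Under normexp the spinal cord values of *Ddc* (−0.233) and *Maoa* (−0.0722) lay above that of the median gene (−0.448).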

How the results depend on the processing

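With 1 array per genotype and tissue no library was left out, and the number of arrays limits every value. No paired analysis was possible because each group held 1 array and the result comes from no test. The alternatives for the pathway genes were chosen after seeing the data. The direction of the *Ddc* and *Maoa* genotype differences was the same under all 8 scaling or probe alternatives in both tissues. So was that of *Drd1*, *Drd2*, *Drd3*, *Drd4* and *Th* in the spinal cord. These alternatives are not independent. For a gene with 1 probe, which is all of these but *Ddc*, the mean of the probes could not differ from the main value. The deposited table nearly repeats quantile normalization of the 4 arrays. The *Drd2* difference, −0.02, was also smaller than its technical SD of 0.12. What caused the changes below was not tested.

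The count of the 9 genes at least 2-fold apart was 0 in the spinal cord and became 5 under normexp and 1 at 1.5-fold. In the duodenum it was 0 and became 1 under normexp, 1 with marked backgrounds replaced, 1 under quantile normalization within each tissue, 4 on spiked-in controls, 4 with no filter on dim probes and 2 at 1.5-fold. Between tissues in WT it was 1 and became 0 under both normexp settings and with the mean of the probes, 2 with median centring, with no filter and at 1.5-fold, 3 by the deposited table, 7 under quantile normalization within each tissue and 9 on spiked-in controls. Between tissues in KO it was 4 and became 1 under both normexp settings, 9 under quantile normalization within each tissue, 2 where both arrays had to be well above background, 3 under quantile normalization of the 4 arrays, 5 by the deposited table, and 6 on spiked-in controls, with no filter and at 1.5-fold. Some settings moved the median gene itself past 2-fold. It was 2.89 in the duodenum on spiked-in controls. Between tissues in WT and KO it was −4.41 and −1.56 on those controls. Under quantile normalization within each tissue it was −2.08 and −2.31. The share of all genes past 2-fold under each setting is not given here.

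These values turned direction. By the deposited table, *Drd5* was 0.0783 in the spinal cord. Less the median gene, *Th* between WT tissues was 0.166 under quantile normalization of the 4 arrays and 0.165 by the table. *Slc18a2* was −0.698 under normexp and −0.0455 on spiked-in controls in the spinal cord. In the duodenum it was −0.883 under both normexp settings and −0.644 with the mean of the probes. Between WT tissues less the median gene, with marked backgrounds replaced, *Slc18a2* was 0.224 and *Maoa* −0.295, and *Slc18a2* was 0.101 with the mean of the probes. On spiked-in controls the duodenum values were 2.47 for *Th*, 2.34 for *Gch1*, 2.07 for *Dbh*, 1.41 for *Gnai2*, 1.45 for *Adcy5*, 1.55 for *Ppp1r1b*, 1.78 for *Caly*, 1.72 for *Pitx3* and 1.46 for *Lmx1b*, and the spinal cord values −0.0917 for *Maob* and −0.0361 for *Gnai2*. Under normexp the spinal cord values were −1.47 for *Dbh*, −2.20 for *Slc6a4*, −1.84 for *Lmx1b*, −0.247 for *Nr4a2*, 0.232 for *Gnal*, 0.0241 for *Ppp1r1b* and 0.208 for *Caly*.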
